A study of Homo sapiens with 6 samples.

Results

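The genes described here encode 10 plasma proteins that the liver secretes in inflammation, the hepatic acute-phase proteins SAA1, SAA2, SAA4, CRP, LCN2, HP, ORM1, ORM2, HAMP and LBP. They were chosen by name, though with earlier results of these data known, and all 10 were found among the 59608 genes of the count table. RNA-seq was made from HepG2, an established human hepatoma line, after endogenous VEZF1, a zinc finger transcription factor, had been silenced with a lentivirus-encoded guide RNA. Wild-type VEZF1 (VEZF1-WT, 3 libraries) or VEZF1-2A (3 libraries), in which a pair of neighbouring serines that carry O-GlcNAc was changed to alanine, was then put back. The silencing was shared by both groups, no library of untouched or VEZF1-silenced cells was analysed here, no inflammatory stimulus is named in the labels, and nothing in them says that libraries of a form came from separate cultures, so that p-values measure the spread between these libraries, which may be technical.

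In inflammation, macrophage cytokines reach the hepatocyte. Interleukin-6 acts through the gp130 receptor chain and STAT3, and interleukin-1 acts through NF-kB, with C/EBPbeta and C/EBPdelta acting beside both. SAA1, SAA2 and CRP are the steeply induced members, SAA4 is the constitutive serum amyloid A, ORM1, ORM2 and HP are abundant in plasma already at rest, and HAMP encodes hepcidin, the hormone that closes the iron exporter ferroportin.

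The upstream sequences of ORM1, CRP and LCN2 are printed because their genes stood at the ends of what was measured: ORM1 was the most abundant member, CRP the least abundant, and LCN2 the most variable of the 7 members with enough counts to be tested. Each is the stretch of 250 bases before the RefSeq start of the gene in GRCh38.p14, 5′ to 3′ on the strand of the gene, in lower case. Capitals mark matches on either strand to the NF-kB letters GGGNNNNNCC or the C/EBP letters TTNNGNAA. The sequences are chr9:114322848-114323097 on the plus strand, chr1:159714590-159714839 on the minus strand and chr9:128149203-128149452 on the plus strand, of which that of ORM1 reaches into the span that the count table gives the gene and that of LCN2 lies wholly inside it.
ORM1: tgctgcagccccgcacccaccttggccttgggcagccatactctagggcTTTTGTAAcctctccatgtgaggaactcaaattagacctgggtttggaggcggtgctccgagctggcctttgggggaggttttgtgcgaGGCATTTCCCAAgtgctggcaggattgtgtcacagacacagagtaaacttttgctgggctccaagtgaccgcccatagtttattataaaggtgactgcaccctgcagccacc
CRP: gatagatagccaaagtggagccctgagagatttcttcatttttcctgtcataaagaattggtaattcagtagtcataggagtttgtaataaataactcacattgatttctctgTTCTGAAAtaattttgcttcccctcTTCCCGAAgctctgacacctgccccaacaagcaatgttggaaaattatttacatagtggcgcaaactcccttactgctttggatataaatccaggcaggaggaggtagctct
LCN2: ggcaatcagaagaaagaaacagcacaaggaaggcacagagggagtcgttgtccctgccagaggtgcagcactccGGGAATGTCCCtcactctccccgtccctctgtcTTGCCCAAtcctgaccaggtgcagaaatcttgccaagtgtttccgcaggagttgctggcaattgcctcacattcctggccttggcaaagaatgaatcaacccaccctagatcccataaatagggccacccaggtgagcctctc
The LCN2 sequence held NF-kB letters from -176 to -166, where both strands matched in overlapping positions, and C/EBP letters from -143 to -136, counted from the start. The ORM1 sequence held NF-kB letters from -112 to -103, which overlap a C/EBP match from -108 to -101, and the CRP sequence held 2 C/EBP matches. Such upstream sequences were given for 5 members, and of all 35116 sequences of that length 54.4% held the NF-kB letters and 33.2% the C/EBP letters, so that a match is a description and not a binding site. In the sequences of SAA4 and HAMP, not printed, the letters of a STAT site, TTCNNNGAA, occurred once, in HAMP, against 6.57% of all sequences, and SAA4 held 6 C/EBP matches.

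The 6 libraries held between 28756765 and 57199396 counts. VEZF1 itself stood at 59.3, 45.6 and 40.0 CPM (counts scaled to library size, with TMM factors) in VEZF1-WT libraries 1 to 3 and at 46.2, 48.6 and 38.9 CPM in VEZF1-2A, where the counts cannot tell endogenous from re-expressed RNA. Liver markers (7 of 7 detected, ALB and AFP among them) summed to 14298 to 17930 CPM in VEZF1-WT and 13739 to 17400 CPM in VEZF1-2A. Markers of other cell types (10) summed to 1802 to 1986 CPM and 1740 to 2061 CPM, carried by KRT19, LYZ and CD68, while PTPRC, which marks leukocytes, had 16 counts over all libraries and CD3E, which marks T cells, had 2. The libraries numbered 3 stood apart in both forms: over all genes, pairs with a library numbered 3 differed by a chi-square per degree of freedom of 8.58 to 13.5, against 3.43 for VEZF1-WT 1 and 2 and 4.36 for VEZF1-2A 1 and 2. For LCN2 and HAMP, fold changes are given with and without both of them. Those of the genes of the other lists are given with them only.

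In level per exon length (TPM, which divides counts by the length of all annotated exons of a gene and by the library's sum), the members fell into a steep order. ORM1 and ORM2, the orosomucoids or alpha-1-acid glycoproteins that bind basic drugs in plasma, led with means over the 6 libraries of 797 TPM (lowest 754, highest 862) and 505 TPM (457 to 546). ORM1 was the 138th most abundant gene of the table, and both orosomucoids together made up between 88.4% and 90.8% of the TPM of all 10 members in each library. SAA4 followed at 82.7 TPM (72.9 to 96.0) and HP, haptoglobin, which binds free haemoglobin, at 57.1 TPM (42.6 to 67.3). LCN2, lipocalin 2, which withholds iron from bacteria by binding their siderophores, stood at 8.52 TPM (1.65 to 16.6) and HAMP at 4.08 TPM (2.89 to 5.46). The other 4 members were near the limit of detection. SAA2 averaged 0.307 TPM, LBP, which carries bacterial lipopolysaccharide to CD14, 0.244 TPM, SAA1 0.158 TPM and CRP, the pentraxin used as the clinical inflammation marker, 0.00892 TPM.

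The ranges of neighbours in this order did not overlap from ORM1 down to LCN2, nor between HAMP and SAA2. They overlapped between LCN2 and HAMP and among SAA2, LBP, SAA1 and CRP, so that the order within those is not set. SAA4 lay below HP in CPM, which does not correct for length, and above it in TPM. All annotated exons together span 5492 bases for HP and 630 for SAA4. Their coding sequences span 1326 and 390 bases, so the order of this pair depends on the length used. Within the serum amyloid A family, the constitutive SAA4 exceeded the inducible SAA2 by 165 to 687 times per exon length in a library. SAA2 had only 4 to 14 counts in a library. Its exon length was 2242 bases against 630 for SAA4, whereas the coding sequences are 366 and 390 bases. The size of the ratio therefore depends on the length used.

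**Figure D1:**
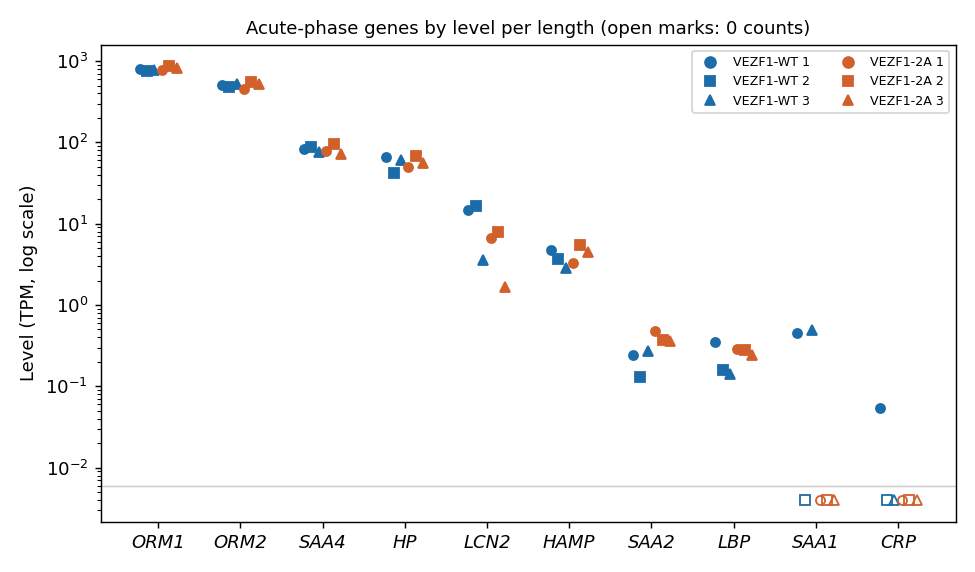
Level of each acute-phase gene in TPM on a log axis, ordered by the mean over 6 libraries, with 1 mark per library (colour: VEZF1 form; shape: replicate number; open marks below the line: 0 counts). ORM1 and ORM2 lie near the top at means of 797 and 505 TPM, the triangles (libraries numbered 3) of LCN2 lie apart from its other marks, and SAA1 and CRP have open marks in 4 and 5 libraries.

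The comparison of VEZF1-WT with VEZF1-2A asked whether the loss of the modified serines changed these genes. None of the 7 members with enough counts to be tested passed 0.05 in the quasi-likelihood test of edgeR after Benjamini-Hochberg adjustment over all genes, and none passed 0.05 before adjustment. Over all 19111 genes tested, 0 passed the adjusted threshold (0% of genes; smallest adjusted p = 0.9996 in edgeR), where DESeq2 called 3 and limma voom 0. At an unadjusted p under 0.05, 408 genes passed (2.13%), 0.832% of all genes with higher and 1.3% with lower counts in VEZF1-WT. The fold changes (log2 of VEZF1-WT over VEZF1-2A) were above 0 for LCN2 and below 0 for the other 6, with a median of -0.04 beside 0.00 over all genes. Single libraries decided that median, which was -0.15 without VEZF1-2A library 1 and 0.01 without VEZF1-2A library 2, and the signs of HP, ORM2 and SAA4 turned with 1 library left out. The 3 libraries of VEZF1-WT did not overlap those of VEZF1-2A for 1 member, SAA2, which was lower in VEZF1-WT. SAA2 entered the test only through its VEZF1-2A libraries. Its direction and separation were thus favoured by the filter and are no support for a difference. Such separation was seen for 7.36% of all genes tested, 3.5% with VEZF1-WT above and 3.86% with VEZF1-WT below.

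LCN2 (chromosome 9, 128149071 to 128153453, plus strand, GRCh38) had the largest difference of the tested members. It stood at 9.13, 10.2 and 2.34 CPM in VEZF1-WT libraries 1 to 3 and at 4.19, 4.997 and 1.09 CPM in VEZF1-2A libraries 1 to 3. Libraries 1 and 2 of VEZF1-WT were above every library of VEZF1-2A, but VEZF1-WT library 3 lay below VEZF1-2A libraries 1 and 2, so the groups overlapped. The means were 7.23 ± 4.27 CPM and 3.42 ± 2.06 CPM (SD, n = 3 each), and the fold change on the log2 scale was 1.05 with a 95% confidence interval from -0.15 to 2.25 (SE 0.54, 2.07-fold). Its size exceeded that of 99.7% of the genes tested, yet it did not pass (unadjusted p = 0.0810, adjusted p = 0.9996, edgeR quasi-likelihood test), and the exact two-sided permutation test gave p = 0.3, where 0.1 is the smallest possible with 3 libraries a form.

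The spread of LCN2 followed the libraries numbered 3. The mean of libraries 1 and 2 exceeded library 3 by 4.13 times in VEZF1-WT and by 4.23 times in VEZF1-2A, and the coefficient of variation over all 6 libraries was 68.6%, against 6.57% for ORM1, 8.01% for ORM2, 8.92% for SAA4, 17.6% for HP, 24.1% for HAMP and 38.6% for SAA2. Of the untested members, with few counts, LBP was at 32.4%, SAA1 at 155% and CRP at 245%. Without VEZF1-WT library 3 the log2 fold change of LCN2 was 1.48 (unadjusted p = 0.00341, adjusted p = 0.9993, edgeR), without VEZF1-2A library 3 it was 0.62 (unadjusted p = 0.204 in edgeR), and without both it was 1.06 (adjusted p = 0.0418, edgeR), a choice made after the data were seen. With no filter on low counts, LCN2 also passed (log2 fold change 1.06, adjusted p = 2.38e-08, edgeR). Its counts were the same as in the main fit, where the unadjusted p was 0.0810 (edgeR) and the exact permutation p was 0.3. The p without the filter therefore understates the spread of LCN2 between libraries. The direction was higher in VEZF1-WT in every one of 18 alternatives, from 0.62 to 1.48. All of these reuse the same libraries or a part of them, so their number is no independent support. Every count of LCN2 was an even number, as were all counts of SAA1, CRP and LBP. Over all genes of a library, 81.0% to 83.0% of counts from 1 to 10 were even. For counts from 11 to 100 the share was 65.7% to 67.5%.

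**Figure D2:**
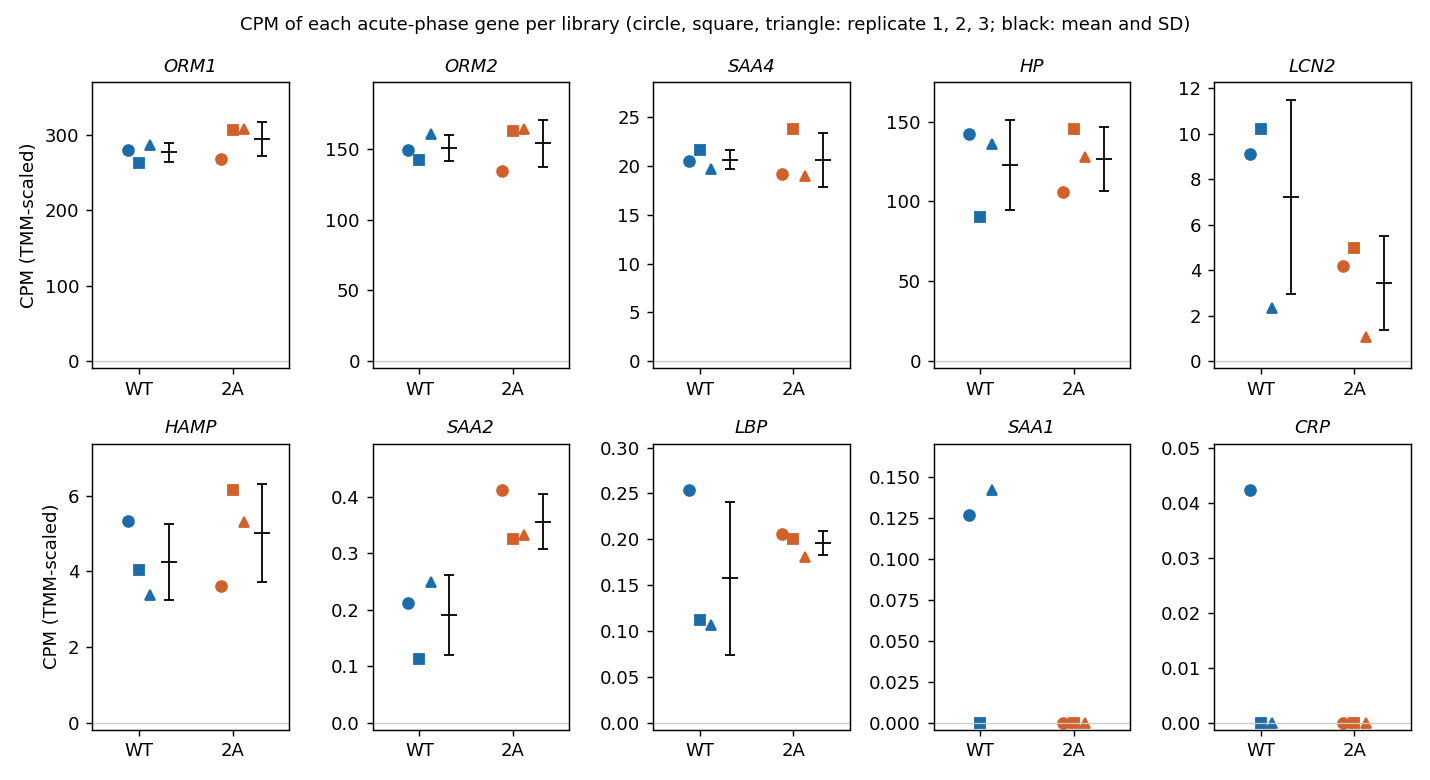
CPM of each of the 10 genes (panels, each with its own axis from 0) in the 3 VEZF1-WT and 3 VEZF1-2A libraries, with the mean and SD in black where the gene was detected in every library. The LCN2 triangles lie lowest in both forms at 2.34 and 1.09 CPM, and only in the SAA2 panel do the forms separate.

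Other acute-phase genes departed in the opposite direction in the libraries numbered 3. The fibrinogen chains FGA, FGB and FGG, which form the clot protein, were 1.74, 1.83 and 1.71 times as high in VEZF1-WT library 3 as in the mean of libraries 1 and 2, and 1.72, 1.86 and 1.72 times as high in VEZF1-2A. These genes, and the fetal liver protein AFP (1.83 and 1.82 times), were singled out after their values were seen. The orosomucoids moved little, ORM1 being 1.06 and 1.07 times and ORM2 1.10 and 1.10 times as high in library 3. GC, the vitamin D binding protein and a negative acute-phase gene, was at 0 and 0.0603 CPM in the libraries numbered 3, against means of 0.876 and 1.45 CPM in libraries 1 and 2. The part of what sets these libraries apart in the LCN2 difference was not tested.

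**Figure D3:**
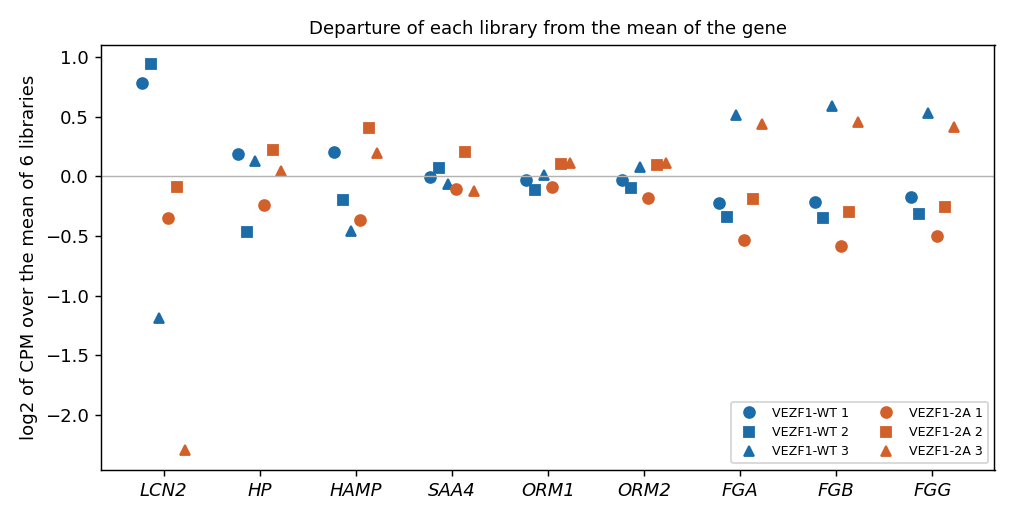
Log2 of CPM over the mean of the 6 libraries for 6 tested members and the 3 fibrinogen chains, 1 mark per library. The triangles of FGA, FGB and FGG lie above 0 and those of LCN2 below 0 in both forms, while the marks of ORM1 and ORM2 stay close to 0.

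The orosomucoids lie side by side on chromosome 9 (ORM1 at 114323056 to 114326475 and ORM2 at 114329869 to 114333251, plus strand). ORM1 stood at 280, 263 and 287 CPM in VEZF1-WT and 268, 306 and 308 CPM in VEZF1-2A, and the ranges overlapped. The log2 fold change was -0.09 (SE 0.07, 95% interval -0.24 to 0.06), which in fold runs from 0.848 to 1.04. ORM2 stood at 149, 142 and 161 CPM against 135, 163 and 164 CPM, with VEZF1-2A library 1 the lowest of all. Its log2 fold change was -0.03 (SE 0.08, 95% interval -0.21 to 0.15). The coding sequences of both genes are identical at 94.9% of 603 aligned bases, so that reads can be split between them in ways that the table does not show. The share of ORM1 in their summed counts was 64.7 ± 0.56% in VEZF1-WT and 65.7 ± 0.79% in VEZF1-2A (SD, n = 3 each), a difference of -0.95 percentage points (exact two-sided permutation test, p = 0.2, 0.4 after Benjamini-Hochberg adjustment over 2 shares).

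HP (chromosome 16, 72054505 to 72061055, plus strand) stood at 142, 90.4 and 136 CPM in VEZF1-WT and 106, 145 and 128 CPM in VEZF1-2A. VEZF1-WT library 2 was the lowest of all 6, and the groups overlapped. The log2 fold change was -0.04 (SE 0.16, 95% interval -0.39 to 0.31). HPR, the haptoglobin-related neighbour whose coding sequence is identical to that of HP at 95.6% of aligned bases, had 2532 counts in all and shared no exon position with HP. Its levels were 10.1 ± 2.01 CPM and 10.5 ± 1.61 CPM (log2 fold change -0.06, SE 0.16).

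SAA4 (chromosome 11, 18231355 to 18236802, minus strand) stood at 20.5, 21.7 and 19.7 CPM in VEZF1-WT and 19.1, 23.8 and 19.0 CPM in VEZF1-2A. Both means were 20.6 CPM, and the log2 fold change was -0.00 (95% interval -0.22 to 0.21). The read-through gene SAA2-SAA4 overlaps 75.6% of the exon bases of SAA4 on the same strand and carried 4464 counts against 4996 for SAA4. Part of the SAA4 level therefore cannot be assigned to one gene. Of the exon bases of SAA2-SAA4, 64.1% are shared with SAA4 and 35.9% with SAA2, which leaves none of its own. SAA2 had 64 counts in all, so most counts of SAA2-SAA4 may be SAA4 reads counted again. Its values are no measurement separate from SAA4. SAA2-SAA4 was at 18.5 ± 1.07 CPM and 18.4 ± 2.71 CPM, with a log2 fold change of -0.00.

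SAA2 (chromosome 11, 18239223 to 18248668, minus strand) was counted 10, 4 and 14 times in VEZF1-WT and 12, 13 and 11 times in VEZF1-2A, which was 0.211, 0.112 and 0.248 CPM against 0.412, 0.325 and 0.332 CPM. Every VEZF1-2A library was above every VEZF1-WT library. The log2 fold change was -0.83 (SE 0.43, 95% interval -1.78 to 0.12, unadjusted p = 0.0790, adjusted p = 0.9996, edgeR), and the exact permutation p was 0.1, the smallest possible. SAA2 entered the test only because its 3 VEZF1-2A libraries passed the filter of 0.267 CPM, which no VEZF1-WT library did, so it was tested only through the form in which it was higher.

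SAA1 (chromosome 11, 18266260 to 18269977, plus strand), whose coding sequence is identical to that of SAA2 at 97.0% of 366 bases, was counted 6, 0 and 8 times in VEZF1-WT and not at all in VEZF1-2A. Taken over the group, the level in VEZF1-WT was 3.43 times a floor of 3 counts in VEZF1-2A. This ratio leaves out the counting error of the 14 counts in VEZF1-WT, all even numbers that may not be independent reads. In addition, VEZF1-WT library 2 was also at 0 and the groups overlapped. The sum of SAA1 and SAA2 had a log2 fold change of -0.27 (unadjusted p = 0.565, edgeR). CRP (chromosome 1, 159712289 to 159714589, minus strand) had 2 counts, both in VEZF1-WT library 1, and LBP (chromosome 20, 38346482 to 38377013, plus strand) had 12, 4 and 6 counts against 6, 8 and 6. SAA1, CRP and LBP were not tested, and no difference of CRP or LBP was detectable at this depth. The SAA2 exons share 267 bases (11.9% of them) on the same strand with SAA2-SAA4, so that the reads of SAA2 cannot be fully assigned. SAA2-SAA4 had 4464 counts against 64 for SAA2. If reads on shared bases were counted for each gene, most of these lie on the exons shared with SAA4. The SAA1 exons share 51 bases with the 5S pseudogene RNA5SP334 and those of SAA2 share as many with RNA5SP333, both at 0 counts.

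HAMP (chromosome 19, 35280716 to 35285143, plus strand) stood at 5.35, 4.04 and 3.37 CPM in VEZF1-WT and 3.60, 6.15 and 5.31 CPM in VEZF1-2A. The groups overlapped, with VEZF1-2A library 1 among the VEZF1-WT values. The log2 fold change was -0.25 (SE 0.22, 95% interval -0.73 to 0.23, unadjusted p = 0.269, adjusted p = 0.9996, edgeR). It was -0.46 without VEZF1-WT library 1 and -0.43 without VEZF1-2A library 1, but -0.10 without VEZF1-WT library 3, -0.07 without VEZF1-2A library 2 and -0.07 without both libraries numbered 3.

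**Figure D4:**
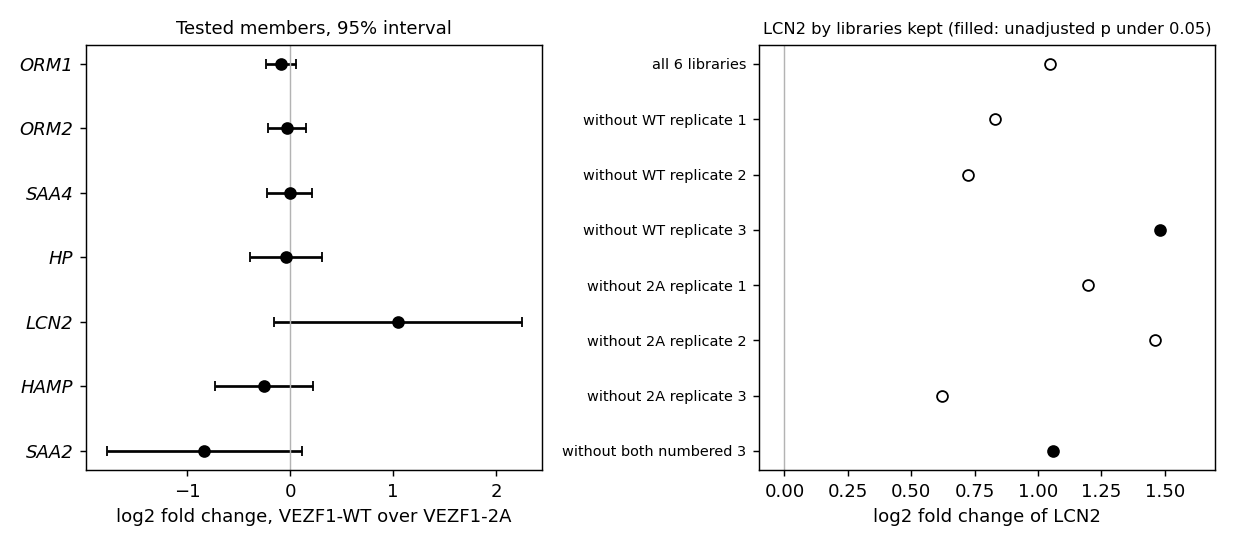
Left, log2 fold change of VEZF1-WT over VEZF1-2A for the 7 tested members with 95% confidence intervals, all of which include 0. Right, the log2 fold change of LCN2 with all libraries, without each library in turn and without both libraries numbered 3, with filled marks at an unadjusted p under 0.05 in edgeR; all 8 values lie above 0.

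The genes that induce and restrain these members were read in the same fit. Of the inducing cytokines, 4 of 10 had enough counts to be tested, and none passed an unadjusted p of 0.05. IL6 had 4 counts in all, IL1B stood at 0.193 ± 0.13 CPM and 0.343 ± 0.20 CPM, and the gp130 cytokines LIF and IL11 led in level at 11.4 and 10.7 TPM. All 16 receptors and signal transducers were tested and none passed, with a median log2 fold change of -0.01. Among them STAT3 (-0.00), the receptor chains IL6R (-0.05) and IL6ST, which encodes gp130 (-0.00), and the interleukin-1 receptor IL1R1 (0.07) had log2 fold changes close to 0, the whole list running from -0.13 to 0.07.

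Of 10 transcription factors of the response, 1 passed an unadjusted p of 0.05, NFKBIZ, which encodes the NF-kB cofactor I-kappa-B-zeta and was lower in VEZF1-WT, beside 2.13% of all genes that passed in either direction. It stood at 10.1, 8.34 and 10.2 CPM in VEZF1-WT and 12.8, 11.6 and 12.7 CPM in VEZF1-2A, without overlap (log2 fold change -0.36, SE 0.10, unadjusted p = 0.00587, adjusted p = 0.9996, edgeR). CEBPB stood at 10.2 ± 1.06 CPM and 10.9 ± 1.81 CPM (log2 fold change -0.10), HNF4A and RELA led this list in level, and the list median was -0.10.

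Of 7 feedback genes, 3 passed an unadjusted p of 0.05, all lower in VEZF1-WT and all without overlap between the forms, and all 3 restrain or modulate NF-kB. Over all genes tested, 1.3% passed with lower counts in VEZF1-WT and 3.86% had VEZF1-WT below without overlap. This list, like the others, was chosen with earlier results of these data known, so its count is no independent result beside these shares. NFKBIA, the I-kappa-B-alpha inhibitor, stood at 58.2, 53.8 and 57.2 CPM against 67.1, 65.9 and 70.6 CPM (log2 fold change -0.27, SE 0.06, unadjusted p = 0.00120 in edgeR). TNFAIP3, the A20 ubiquitin editing enzyme, stood at 22.1, 21.2 and 25.1 CPM against 26.5, 31.0 and 30.1 CPM (log2 fold change -0.36, SE 0.09, unadjusted p = 0.00208 in edgeR). BCL3, an atypical I-kappa-B protein, stood at 2.22, 2.47 and 2.84 CPM against 4.05, 2.90 and 3.20 CPM (log2 fold change -0.42, SE 0.18, unadjusted p = 0.0382 in edgeR). Their adjusted p was 0.9996 each (edgeR), and SOCS3, the inhibitor of STAT3 signalling, stood at 0.956 ± 0.14 CPM and 1.01 ± 0.22 CPM (log2 fold change -0.09). LCN2, a known NF-kB target, had a fold change of the opposite sign to these genes, but did not itself pass an unadjusted p of 0.05 with all libraries. A link between LCN2 and these genes was not tested.

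Of 22 other positive acute-phase genes, 21 were tested and none passed an unadjusted p of 0.05 (median log2 fold change 0.01, from -0.30 to 0.26). SERPINA1, alpha-1-antitrypsin, stood at 2680 ± 199.96 CPM in VEZF1-WT and 2899 ± 336 CPM in VEZF1-2A, and A2M, alpha-2-macroglobulin, at 1068 ± 179 and 1029 ± 146 CPM. APCS, the pentraxin next to CRP, had 0 counts. Of 12 negative acute-phase genes, 11 were tested and none passed (median -0.07), APOA2 and ALB being the most abundant with log2 fold changes of -0.03 and -0.07.

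Of 21 genes of the hepcidin and iron axis, 19 were tested and none passed (median log2 fold change -0.04). BMP6, the ligand that drives hepcidin, stood at 11.4 ± 1.13 CPM and 10.8 ± 0.82 CPM, and TMPRSS6, the protease that restrains it, at 0.355 ± 0.038 CPM and 0.379 ± 0.12 CPM. SLC40A1, the ferroportin that hepcidin closes, stood at 27.7 ± 6.96 CPM and 29.6 ± 8.25 CPM. The ferritin chains FTH1 and FTL, the most abundant of this list, had log2 fold changes of -0.04 and 0.03. Of 10 partners and receptors of the members, 4 were tested and none passed, SCARB1, a receptor for serum amyloid A, leading in level (log2 fold change -0.13), and CD163, the macrophage receptor for haptoglobin and haemoglobin, had 21 counts in all. Of 9 relatives and read-through genes of the members, SAA2-SAA4 and HPR were tested, and 5 had 0 counts.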

How the data were processed

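RNA from the 6 libraries had been isolated on columns, and mRNA libraries had been prepared with a SMARTer kit. The authors deposited 1 table of raw read counts per gene without normalization. The submitters' processing notes name GRCh38, whereas the aligner, the counter, the annotation release and the strand setting were not given in the sources used here. Positions and exon lengths are those of the table. Of 59613 lines, 5 belonging to a broken entry were left out. In each library 65.7% to 67.5% of counts from 11 to 100 were even numbers, so counts may not be independent reads, and all tests rest on the spread between libraries.

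Genes were kept by filterByExpr (minimum count 10, minimum total 15), scaled by TMM and tested, two-sided, with edgeR 4.0.16 (glmQLFit and glmQLFTest, prior count 0.125) in R 4.3.3, with the VEZF1 form as the only term and Benjamini-Hochberg adjustment over all genes tested. Intervals of fold changes are 95%. Permutation tests used log2 of CPM plus 0.1. TPM was computed from exon lengths. Coding sequences were aligned from GENCODE 29, in which 3 of the 10 members have the span of the table. Alternatives used DESeq2 1.42.0 and limma 3.58.1. The procedure was tested on simulated data.

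The members and lists were chosen with earlier results of these data known. Named are all members, their relatives and genes sharing exon positions, the 2 most abundant genes of each other list, every gene of a list with an unadjusted p under 0.05, and IL6, IL1B, IL6R, IL6ST, IL1R1, STAT3, CEBPB, SOCS3, BMP6, SLC40A1, TMPRSS6 and CD163; other names were chosen after their values were seen. A gene that this rule would name is not reported here.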

Additional observations from a re-analysis of the deposited data

How the results depend on the processing

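Scaling by DESeq2 size factors, by the upper quartile or by library size alone, a filter of 1 CPM, limma voom, robust dispersions and halved counts left the number of members that passed at 0. LCN2, SAA2, HAMP and ORM1 kept their direction under every alternative run for them, all of which reuse the same libraries. Without a filter on low counts, 16 of 38745 genes passed the adjusted threshold and 896 the unadjusted one. Of the members, 1 (LCN2) passed the former and 2 (LCN2 and SAA1, unadjusted p = 0.0180 in edgeR) the latter. The LCN2 p of that fit understates the spread of LCN2 between libraries, as its counts were those of the main fit. SAA4 had a log2 fold change of 0.00944 there. DESeq2 called 3 genes (UBD, GABBR1 and OR2I1P, named after their values were seen) and 219 at an unadjusted p under 0.05. Without overlapping genes, 154 of 8547 passed the unadjusted threshold. With both libraries numbered 3 left out, 4 genes passed the adjusted and 833 the unadjusted threshold, LCN2 being the 1 member of both. Leaving out 1 library at a time gave 292 to 973 genes and 0 to 1 members at an unadjusted p under 0.05, the highest gene count without VEZF1-2A library 3 and the members being LCN2 without VEZF1-WT library 3 and ORM1 without VEZF1-2A library 1 (log2 fold change -0.15, unadjusted p = 0.0484 in edgeR); the log2 fold changes ran from -0.162 to 0.136 for HP, -0.117 to 0.0170 for ORM2 and -0.0647 to 0.114 for SAA4, turning above 0 without VEZF1-WT library 2 or VEZF1-2A library 2 for HP, without either of these or VEZF1-2A library 3 for ORM2, and without VEZF1-WT library 3 or VEZF1-2A library 2 for SAA4. HAMP ran from -0.46 to -0.07. The causes of these changes were not tested.

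The replicate numbers were not shown to pair the libraries: the deviations of same-numbered libraries correlated across genes with r = 0.0820, 0.151 and 0.382, and VEZF1-2A library 1 correlated best with VEZF1-WT library 2 (0.181). With the replicate number as a block, 6 genes passed the adjusted and 825 the unadjusted threshold, LCN2 being the 1 member of both (log2 fold change 1.08, adjusted p = 6.83e-04, edgeR), with SAA4 at a log2 fold change of 0.00532. Within numbers 1, 2 and 3, LCN2 was 2.18, 2.04 and 2.16 times as high in VEZF1-WT.

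Depth limits SAA1, CRP and LBP, for which 3 counts over the VEZF1-2A libraries correspond to 0.0293 CPM, a limit that covers counting error only.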
